A study of Saccharomyces cerevisiae with 8 samples.

Results

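Binding of the yeast transcription factor Gcr1 at nuclear tRNA genes was taken from 4 deposited chromatin immunoprecipitation sequencing (ChIP-seq) peak lists. A peak was counted when its interval on a nuclear chromosome lay within 500 bp of an annotated nuclear tRNA gene. This gave 432 of the 1064 listed peaks: 98 of 299 in each of the Gcr1(U) lists and 118 of 233 in each of the Gcr1(S) lists. Each of these peaks overlapped its tRNA gene, and no peak was counted for more than 1 gene. The table used here holds 275 nuclear tRNA genes.

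tRNA genes are transcribed by RNA polymerase III. Their promoter lies inside the gene, where the A box and the B box are bound by TFIIIC, which places TFIIIB just upstream of the start. Gcr1 is best known as the activator of the glycolytic genes, which are transcribed by RNA polymerase II, and it acts there together with Rap1 and Gcr2. Its transcript can keep or lose its intron, and the unspliced and the spliced transcript encode the forms called Gcr1(U) and Gcr1(S).

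The study asked where each form binds during exponential growth and after the diauxic shift, the change from fermenting glucose to respiring ethanol. The Gcr1(U) cultures were strain JHY9311, BY4741 with GCR1U-TAP::his3MX6, and the Gcr1(S) cultures were strain JHY9321, BY4741 with GCR1S-TAP::his3MX6. Both strains also carried GCR2-5Flag::hphMX6, so Gcr2 was tagged in every group. Each form was sampled at 6 h, labelled as exponential phase, and at 12 h, labelled as after the diauxic shift, with 2 replicates in each of the 4 groups.
BY4741 is a haploid laboratory strain, and each form is represented by 1 strain. Cells grew in 10 mL of rich medium with 2% glucose in a 50 mL flask, from an OD600 of 0.5, at 30 °C and 170 rpm. They were fixed with 1% formaldehyde for 25 min, the reaction was stopped with 250 mM glycine, and chromatin was recovered through the TAP tag on IgG-sepharose. Libraries had 15 PCR cycles and were read from 1 end for 50 cycles. Neither an input nor an untagged control was analysed here, and tags that do not depend on Gcr1 therefore have no measured level. The sources used here do not give how reads that match several tRNA copies were placed.

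The deposited lists hold 1 value per peak for each form and time and none per replicate. No difference below therefore has a replicate check or a test, and bracketed ranges are exact binomial 95% intervals on derived tag numbers, which cover counting error only. Levels are the authors' normalized tag counts, tags in the peak window scaled to library size. Where 4 values follow each other, they are for the 6 h list of Gcr1(U), its 12 h list, the 6 h list of Gcr1(S) and its 12 h list, in that order. Every window at a tRNA gene was 182, 168, 170 and 114 bp wide in these lists, so genes can be compared within a list at equal length. As derived from the spacing of the values, 1 normalized tag stood for 1.501, 1.418, 1.074 and 0.582 sequenced tags, so the last list was the shallowest. Within each form the same genes were listed at both times, and both lists hold matched peaks in the same order, so their overlap is no measure of stability over time. Coordinates are those of sacCer3.

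Somewhat under 50% of the nuclear tRNA genes carried a peak of either form, 135 of 275 (49.1%). Gcr1(U) was listed at 35.6% of the genes and Gcr1(S) at 42.9%. The forms had 81 genes in common, which is 82.7% of the genes listed for Gcr1(U) and 68.6% of the genes listed for Gcr1(S). A peak was listed for Gcr1(U) alone at 17 genes, for Gcr1(S) alone at 37, and for neither at 140. Absence from a list is not a measured level of 0, since the lists hold only peaks above the peak caller's thresholds. Both lists of a form hold the same tRNA genes, so the counts at 6 h and 12 h are not separate calls.

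The limit of 500 bp split no group of peaks. Just inside it, every peak overlapped its gene. Just outside it, the nearest peak of Gcr1(U) at 6 h lay 818 bp from the proline tRNA gene TRN1 (I 140072 to 140254, closest to SSA1) with 181.2 tags and 2.85-fold over local background. At 12 h it lay 746 bp from YNCN0015W (XIV 601398 to 601566) with 75.1 tags. For Gcr1(S) it was a peak closest to GPD1, 915 bp from YNCD0004W at 6 h (IV 411366 to 411536) with 383.6 tags, and 941 bp from it in the 12 h list with 545.6 tags.

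Listed genes were spread unevenly over the lengths of tRNA genes. These range from 71 to 133 bp, and the longer ones include those with an intron and those with a long variable arm. Of the 214 genes under 87 bp, 118 (55.1%) had a peak in at least 1 form, against 17 of the 61 genes of 87 bp and over (27.9%). Gcr1(U) was listed at 39.7% of the shorter and 21.3% of the longer genes, and Gcr1(S) at 49.5% and 19.7%.

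Finer classes showed where the longer genes with peaks lay. Among the 22 genes of 82 to 84 bp, which include the serine genes SUP16, SUP17 and SUP19, 14 (63.6%) had a peak. Among the 18 genes of 89 to 95 bp, Gcr1(U) was listed at 5 and Gcr1(S) at 2, and 4 of the 6 with any peak were listed for Gcr1(U) alone. Among the 43 genes of 96 bp and over, 11 had a peak (25.6%). Of the single lengths in this class held by 6 or more genes, 5 of 7 genes of 103 bp and 3 of 6 genes of 101 bp had one, and none of the 7 genes of 96 bp, the 6 of 106 bp and the 8 of 114 bp did. Genes of the same length can be copies of one tRNA, so the genes in these counts may not be independent. The part of reads that match several copies was not tested here either.

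**Figure D1:**
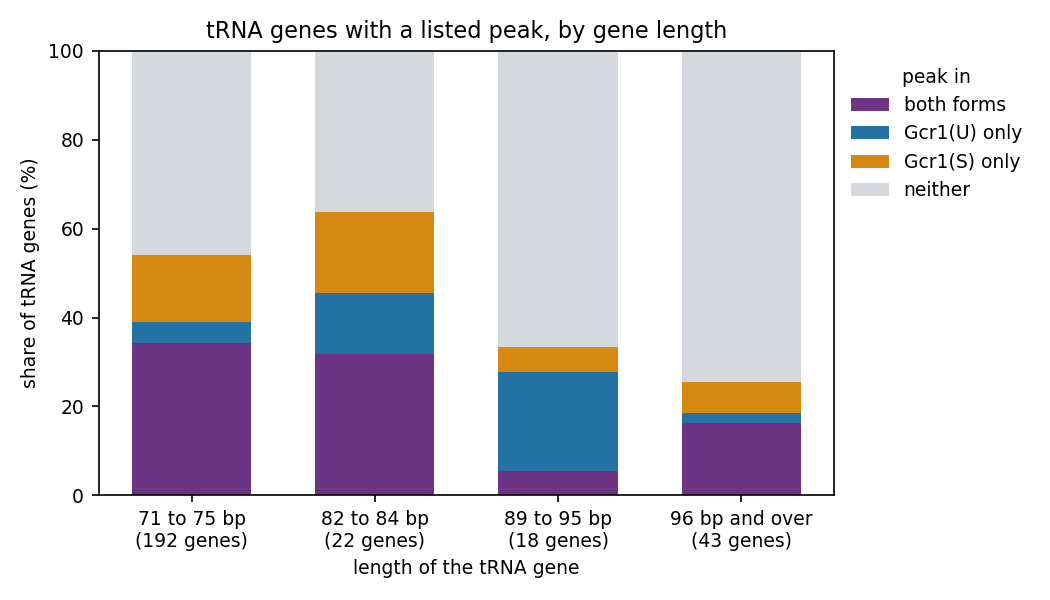
Share of nuclear tRNA genes (vertical axis, percent) with a listed peak in both forms, in 1 form or in neither, by gene length (horizontal axis, bp). The share with any peak is 54.2% at 71 to 75 bp, 63.6% at 82 to 84 bp, 33.3% at 89 to 95 bp and 25.6% at 96 bp and over.

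Among genes that had a peak, length went with small differences in level. In Gcr1(U) at 6 h the 85 shorter genes had a median of 326 tags and the 13 longer ones 303.7, and at 12 h the medians were 408.8 and 368.6. In Gcr1(S) the 106 shorter genes had a median of 449.7 tags and the 12 longer ones 448.5 at 6 h, and 220 and 209.2 at 12 h. The ranges of both classes overlapped in each list.

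tRNA genes that stand close together had no listed peak. The annotation holds 6 pairs of tRNA genes within 500 bp of each other, and 0 of these 12 genes had a peak of either form, against 135 of the 263 others (51.3%). In 4 pairs both genes are 72 bp long and lie 11 bp apart, as YNCB0015W (II 405878 to 405949) and YNCB0016W (II 405960 to 406031) do. These 4 pairs are alike in layout and may not be independent. YNCB0004W and YNCB0005C lie 62 bp apart, and YNCG0028W and YNCG0029C lie 197 bp apart. The part of reads that match several copies in this absence of peaks was not tested. Farther out the distance made little difference: 13 of 25 genes had a peak where the next tRNA gene lay over 500 and up to 2000 bp away, 44 of 90 where it lay up to 10000 bp away and 78 of 148 beyond that.

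The share of tRNA genes with a peak of either form was 0 of 4 on chromosome I, 8 of 24 on X (33.3%), 20 of 36 on VII (55.6%), 10 of 14 on XIV (71.4%) and 8 of 11 on VIII (72.7%). Most chromosomes hold few tRNA genes, so these shares rest on small numbers. By strand, the share with a peak of either form was 46.9% of 143 genes on the Watson strand and 51.5% of 132 on the Crick strand. For Gcr1(U) it was 30.1% and 41.7%, for Gcr1(S) 39.9% and 46.2%, and for both forms 23.1% and 36.4%, so the Crick strand had the larger share in each of these counts.

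The reference table used here names no isotype, but 47 genes carry classical symbols, mostly of suppressor mutations, from which the amino acid is known. Of these 47 genes, 29 (61.7%) had a peak in at least 1 form, 14 of them in both. The 12 families they form differed in how many members were listed. Copies of one tRNA can share nearly all of their sequence, so the values of family members may not be independent.

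Among the families with 4 or more named genes, glycine and proline had the largest shares listed in at least 1 form, 8 of 9 and 6 of 7. Most of these genes are SUF genes, found through frameshift suppression. Of 9 glycine genes, SUF1, SUF3, SUF4, SUF6 and SUF20 were listed for both forms, SUF16, SUF17 and SUF23 for Gcr1(S) alone, and SUF5 for neither. Of 7 proline genes, SUF2, SUF7, SUF8 and SUF10 were listed for both forms, SUF9 and SUF11 for Gcr1(S) alone, and TRN1 for neither. No glycine or proline gene of this set was listed for Gcr1(U) alone.

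The tyrosine and leucine suppressor genes stood at the other end. All 8 tyrosine genes are 89 bp long, and 2 of them had a peak, SUP2 and SUP5, both in Gcr1(U) alone, while SUP3, SUP4, SUP6, SUP7, SUP8 and SUP11 had none. Of the 4 leucine genes SUP51, which is 84 bp long, was listed for Gcr1(U) alone, and SUP53, SUP54 and SUP56, which are 114 bp long, had no peak. SUP2 had 268.1 tags at 6 h and 328.7 at 12 h, and SUP5 had 245.1 and 322.7, all below the median of the Gcr1(U) lists' tRNA genes.

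Copies of the methionine tRNAs were split among the lists. Initiator methionine tRNA, which starts translation, has 4 genes: IMT4 was listed for both forms, IMT2 for Gcr1(U) alone, IMT3 for Gcr1(S) alone and IMT1 for neither. Elongator methionine tRNA has 5, of which EMT1 and EMT3 were listed for Gcr1(S) alone and EMT2, EMT4 and EMT5 for neither. At 6 h IMT2 had 323 tags in Gcr1(U) and IMT3 398.5 in Gcr1(S), and both values lay below the medians of tRNA genes in those lists.

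The remaining named genes are mostly single members. Peaks of both forms were listed at the arginine genes HSX1 and TRR4, the glutamine gene CDC65 and the serine gene SUP61. Peaks of Gcr1(S) alone were listed at the threonine gene TRT2, the glutamate gene SOE1 and the serine gene SUP16. The serine genes SUP17 and SUP19 and the alanine gene TGA1 had none. HSX1, TRR4, CDC65, SUP61 and TRT2 are each the only gene in yeast for their anticodon, and all 5 had a peak of Gcr1(S) and 4 of them of Gcr1(U).

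Levels at tRNA genes lay in a narrow band in every list. In Gcr1(U) at 6 h they ran from 212.1 to 499.5 tags with a median of 324.2, and at 12 h from 278.3 to 590.1 with a median of 405.1. In Gcr1(S) at 6 h they ran from 338 to 662.4 with a median of 449.7, and at 12 h from 172.7 to 515.5 with a median of 220. The highest gene therefore stood 2.36, 2.12, 1.96 and 2.98 times above the lowest, in list order. Across genes the coefficient of variation was 14.3%, 15.4%, 14.4% and 18.6%, where the other nuclear peaks of the same lists varied by 187%, 146%, 155% and 197%.

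**Figure D2:**
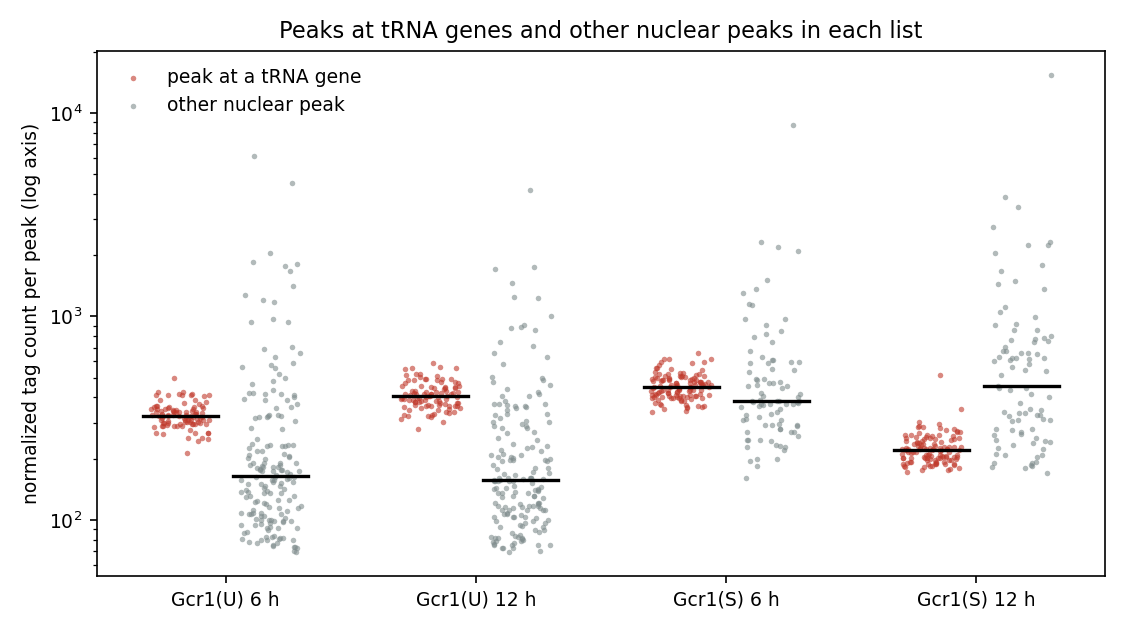
Normalized tag count per peak (vertical log axis) in each of the 4 lists, for peaks at tRNA genes (red) and all other nuclear peaks (grey), with 1 point per peak and medians as black lines. Peaks at tRNA genes lie in a narrow band in each list, with medians of 324.2, 405.1, 449.7 and 220 tags, while other nuclear peaks reach 15418.8 tags.

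The place of that band among all peaks differed between the lists. The median tRNA gene stood at percentile 63.7, 73.8, 56.4 and 32.0 of all peaks of its list by tags. The number of tRNA genes above the median of their list was 82 of 98, 97 of 98, 72 of 118 and 25 of 118. In Gcr1(S) at 12 h the lowest tRNA gene, SUF7 with 172.7 tags, lay next to the lowest peak listed at all, 169.3. The lower end of the tRNA genes there coincided with the lower end of the list.

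Local contrast at tRNA genes differed between the lists. The authors' fold over local background had a median of 2.24, 2.77, 2.915 and 2.27 over the tRNA genes of the lists. It lay under 2.5 at 74.5%, 22.4%, 14.4% and 72.0% of these genes, where it did at 41.1%, 20.7%, 19.3% and 40.8% of all peaks and at 26.4%, 22.4%, 29.2% and 8.99% of other nuclear peaks. Folds close to the lowest one listed, 2.00, 2.01, 2.01 and 2.00, were thus more frequent at tRNA genes than among all peaks in the first and the last list. In the second list the shares were close, 22.4% against 20.7%, and in the third the tRNA genes had the smaller share.

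Genes listed for 1 form were somewhat lower than genes listed for both. At 6 h the 17 genes of Gcr1(U) alone had a median of 308 tags and a fold of 2.11, and the 81 genes of both forms had 327 tags and a fold of 2.27. The 37 genes of Gcr1(S) alone had a median of 425 tags and a fold of 2.65 at 6 h, against 467.4 tags and 3.08. At 12 h the medians were 386.6 against 405.3 tags in Gcr1(U) and 205.4 against 224.3 in Gcr1(S), and the ranges overlapped in all 4 lists. The part of the listing thresholds in which genes are listed for 1 form was not tested.

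The highest genes of 1 form alone stood above the median of the tRNA genes of their list. In Gcr1(U) alone at 6 h these were YNCE0013W with 357 tags, YNCN0006W with 353.7, YNCE0005W with 350, YNCM0010W with 348 and YNCF0014C with 341.7. In Gcr1(S) alone they were YNCN0010C with 521.4 tags, YNCN0017W with 507.4, YNCN0004W with 493.9, SUF9 with 493 and YNCJ0029W with 487.4. YNCE0013W (V 207357 to 207428) lies 216 bp from CHO1, and YNCN0010C (XIV 560693 to 560765) lies 214 bp from NCE103.

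The highest genes of all differed from list to list. The 5 highest of each list comprised 12 genes, of which 0 were among the 5 in every list and 2, SUP61 and YNCP0009W, in 3 of them. SUP61 (III 227942 to 228042, 101 bp long) encodes an essential serine tRNA. It had 415.9, 556.6, 662.4 and 286.1 tags in the lists, and 662.4 was the highest value of any tRNA gene. YNCP0009W (XVI 572269 to 572339, 679 bp from HAA1) had 410.6, 590.1, 614.5 and 290.4 tags.

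Other genes led single lists. YNCJ0008W (X 233939 to 234011, 179 bp from MEF2) led the 6 h list of Gcr1(U), with 499.5, 492.7, 595.9 and 352.3 tags over the lists. The glycine genes SUF1, SUF3 and SUF6 followed it at 6 h with 425.6, 414.6 and 426.6 tags. In Gcr1(S) at 6 h SUP61 was followed by the proline gene SUF2 with 619.6 and the arginine gene TRR4 with 616.8. The genes nearest the median of the lists were YNCH0006C with 325.4 tags, YNCE0013W with 405.3, EMT3 with 450.2 and YNCG0039W with 220.

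Peak centres lay within the transcribed gene in most cases. Measured from the 5′ end of the tRNA gene, the median centre lay 51, 36, 23.5 and 45 bp into the gene. The centre fell between the ends of the gene at 79 of 98, 90 of 98, 88 of 118 and 93 of 118 genes. Centres upstream of the gene numbered 6, 5, 25 and 10, and centres downstream 13, 3, 5 and 15, so the 6 h list of Gcr1(S) had the most upstream centres. The extremes were 41 bp upstream and 141 bp downstream of the 5′ end. The windows differ in width between the lists, and the part of this in the shift of centres was not tested.

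**Figure D3:**
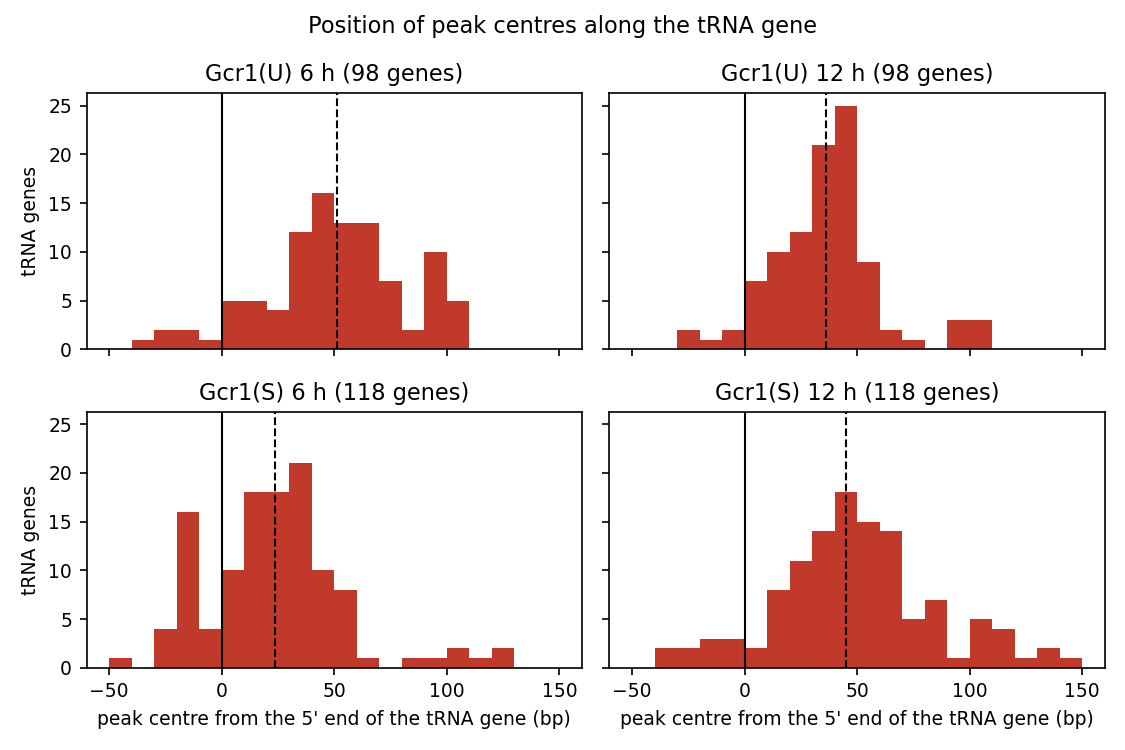
Number of tRNA genes (vertical axis) by distance of the peak centre from the 5′ end of the gene (horizontal axis, bp, positive into the gene) in the 4 lists. The solid line marks the 5′ end and the dashed line the median, at 51 and 36 bp in Gcr1(U) and 23.5 and 45 bp in Gcr1(S).

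At 6 h all 81 genes listed for both forms had more normalized tags in Gcr1(S) (background 111 of the 162 peaks in both lists). The ratio of Gcr1(S) to Gcr1(U) had a median of 1.41, or 0.50 on the log2 scale (quartiles 0.39 and 0.58), and ran from 1.12 to 1.83. A ratio of 1.5 or more was found at 17 of the 81 genes, where 12.3% of the 162 peaks in both lists were that high. A ratio of 1/1.5 or less was found at 0 genes (background 16%), and a ratio of 2 or more at 0 (background 0%). The interval lay above 1 at 79 genes (background 60.5%). The tRNA genes are themselves 81 of these 162 peaks, and 25 are mitochondrial. Both kinds are part of the background of each comparison below. A ratio of 1/1.5 or less was found at 18 of the 25 mitochondrial peaks and at 8 of the 137 nuclear peaks.

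The genes at both ends of this range are known by few names. YNCC0010C (III 168301 to 168372, 302 bp from RHB1) had the largest ratio, 1.83 (1.61 to 2.08), from 288.7 tags in Gcr1(U) to 527.9 in Gcr1(S). HSX1, the arginine tRNA gene found through a heat shock suppressor, followed with 1.68 (1.49 to 1.90), from 314.7 to 528.8. The smallest ratio was 1.12 (0.994 to 1.26) at YNCH0015W, from 410.3 to 460.4, and the glycine gene SUF3 had 1.14 (1.01 to 1.28), from 414.6 to 471.6. Both genes with these small ratios stood above the 6 h median of Gcr1(U). That level is the denominator of the ratio, so it is no separate observation.

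Among nuclear peaks away from tRNA genes, the 8 glycolytic promoters had a median log2 ratio of -0.50, opposite in sign to the tRNA genes. The 48 other nuclear peaks had a median of 0.07. Relative to the median of these 56 peaks, 0.02, the tRNA median was 0.47, with 13 genes past 1.5-fold. Relative to the median of all 137 nuclear peaks, 0.39, it was 0.10 with 0 genes past 1.5-fold, but 81 of these peaks are the tRNA genes, so that scale brings them near 0 by construction. Per bp of window 42 genes were past 1.5-fold. For centred and per bp counts, here and below, no share over all peaks is given.

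At 12 h all 81 genes had fewer normalized tags in Gcr1(S) (background 102 of 163 peaks). The ratio of Gcr1(S) to Gcr1(U) had a median of 0.547, or -0.87 on the log2 scale (quartiles -0.99 and -0.75), and ran from 0.415 to 0.715. It was 1/1.5 or less at 76 genes (background 50.3% of 163 peaks), 0.5 or less at 18 (background 11.7%) and 1.5 or more at 0 (background 30.1%). The interval lay below 1 at 81 genes (background 56.4%). Of this background 25 peaks are mitochondrial, and 24 of them had a ratio of 1.5 or more, as had 25 of the 138 nuclear peaks.

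The initiator methionine gene IMT4 (V 100133 to 100204) had the smallest ratio, 0.415 (0.338 to 0.505), from its 202.8 tags in Gcr1(S) against 488.5 in Gcr1(U). HSX1 followed with 0.422 (0.347 to 0.510), with 520.9 and 220 tags, so it was near one end of the range at both times, in opposite directions. The largest ratio was 0.715 (0.609 to 0.837) at YNCJ0008W. YNCH0001W followed with 314.3 tags in Gcr1(U) against 220, then YNCK0005C with 0.698, YNCO0029C with 0.682 and SUF3 with 0.667 (0.555 to 0.794). These genes differed least between the forms at 12 h.

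Glycolytic promoters had a median log2 ratio of 1.501 at 12 h, and other nuclear peaks one of 0.05. Relative to the median of the 57 nuclear peaks away from tRNA genes, 0.11, the tRNA median was -0.98 with 81 genes past 1.5-fold lower. Relative to the median of all 138 nuclear peaks, -0.69, it was -0.18 with 0 genes past 1.5-fold, again with 81 tRNA genes in the reference. Per bp of window, 114 bp in Gcr1(S) against 168 bp in Gcr1(U), the median was -0.31 with 5 genes past 1.5-fold, and with the authors' fold over local background it was -0.20.

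Within Gcr1(U), 94 of 98 tRNA genes had more normalized tags at 12 h than at 6 h (background 160 of 299 peaks). The ratio of 12 h to 6 h had a median of 1.26, or 0.33 on the log2 scale (quartiles 0.24 and 0.42), and ran from 0.939 to 1.70. It was 1.5 or more at 4 genes, a share near the background of 2.68% of 299 peaks, 2 or more at 0 (background 0%) and 1/1.5 or less at 0 (background 12%). The interval lay above 1 at 82 genes (background 33.1%) and spanned 1 at 16. Of this background 27 peaks are mitochondrial, and 25 of them had a ratio of 1/1.5 or less, as had 11 of the 272 nuclear peaks.

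The 4 genes past 1.5-fold were YNCD0005C with 1.70 (1.496 to 1.93), HSX1 with 1.66 (1.47 to 1.86), IMT4 with 1.57 (1.40 to 1.77) and YNCD0007C with 1.54. YNCD0005C (IV 434264 to 434336) was listed for Gcr1(U) alone, with 266.7 tags at 6 h and 452.5 at 12 h. The genes that were not higher at 12 h were YNCH0001W with 0.939, YNCJ0008W with 0.986, YNCH0015W with 0.996 and SUF3 with 0.998. Per bp of window the count past 1.5-fold was 16, and relative to the 174 nuclear peaks away from tRNA genes, whose median was -0.07, it was 9. Relative to all 272 nuclear peaks, 98 of them the tRNA genes, it was 2.

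Within Gcr1(S), 117 of 118 tRNA genes had fewer normalized tags at 12 h than at 6 h (background 149 of 233 peaks). The ratio had a median of 0.485, or -1.04 on the log2 scale (quartiles -1.14 and -0.93). It was 1/1.5 or less at 117 genes (background 52.8% of 233 peaks), 0.5 or less at 69 (background 30.9%) and 1.5 or more at 0 (background 14.6%). The interval lay below 1 at 117 genes (background 58.8%). Of this background 26 peaks are mitochondrial, and 5 of them had a ratio of 1.5 or more, as had 29 of the 207 nuclear peaks.

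The smallest ratios in Gcr1(S) were 0.399 at YNCO0005W, 0.407 at YNCC0014W and 0.410 at IMT4, which went from 494.9 to 202.8 tags. The largest ratios under 1 were at YNCD0001W with 0.656, from 451.6 to 296.4 tags, and YNCK0005C with 0.653. YNCJ0029W (X 617919 to 618019, 215 bp from RSM26) was the single exception, going from 487.4 to 515.5 tags between the times, with a ratio of 1.06 (0.916 to 1.22). Its peak was centred 16 bp upstream of the 5′ end at 6 h (617818 to 617988) and 85 bp downstream of it at 12 h (617947 to 618061), and its fold over local background was 2.44 and 4.05.

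Relative to the 89 nuclear peaks of Gcr1(S) away from tRNA genes, whose median was 0.21, the tRNA median was -1.26 with 117 genes past 1.5-fold lower. Relative to all 207 nuclear peaks, whose median was -0.84 and 118 of which are the tRNA genes, it was -0.20 with 0 genes past 1.5-fold. Per bp of window it was -0.47 with 24 genes past 1.5-fold, and with fold over local background it was -0.32. On each of these scales the tRNA median stayed below 0.

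Side by side, the forms differed in direction over time at 77 of the 81 shared genes, with more tags at 12 h in Gcr1(U) and fewer in Gcr1(S). No share over all peaks is given for this joint count. Taken singly, 160 of all 299 peaks of Gcr1(U) had more tags at 12 h, and 149 of all 233 peaks of Gcr1(S) had fewer. The median log2 ratio of 12 h to 6 h was 0.33 in Gcr1(U) and -1.05 in Gcr1(S) over the shared genes, and the difference per gene ran from -1.99 to -0.69. With 1 pooled list per group this difference was not tested. Promoters of glycolytic genes had medians of -1.08 in Gcr1(U) and 0.88 in Gcr1(S), and other nuclear peaks -0.05 and 0.14, so the tRNA genes had the sign opposite to the glycolytic promoters in both forms. Normalized tags are scaled to each library, and the part of that scaling in these signs was not tested. Windows were also narrower at 12 h than at 6 h, and more so in Gcr1(S) than in Gcr1(U). Per bp of window the median log2 ratio of 12 h to 6 h was 0.45 over all 98 tRNA genes of Gcr1(U). Over all 118 of Gcr1(S) it was -0.47. The difference per gene was not computed per bp.

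**Figure D4:**
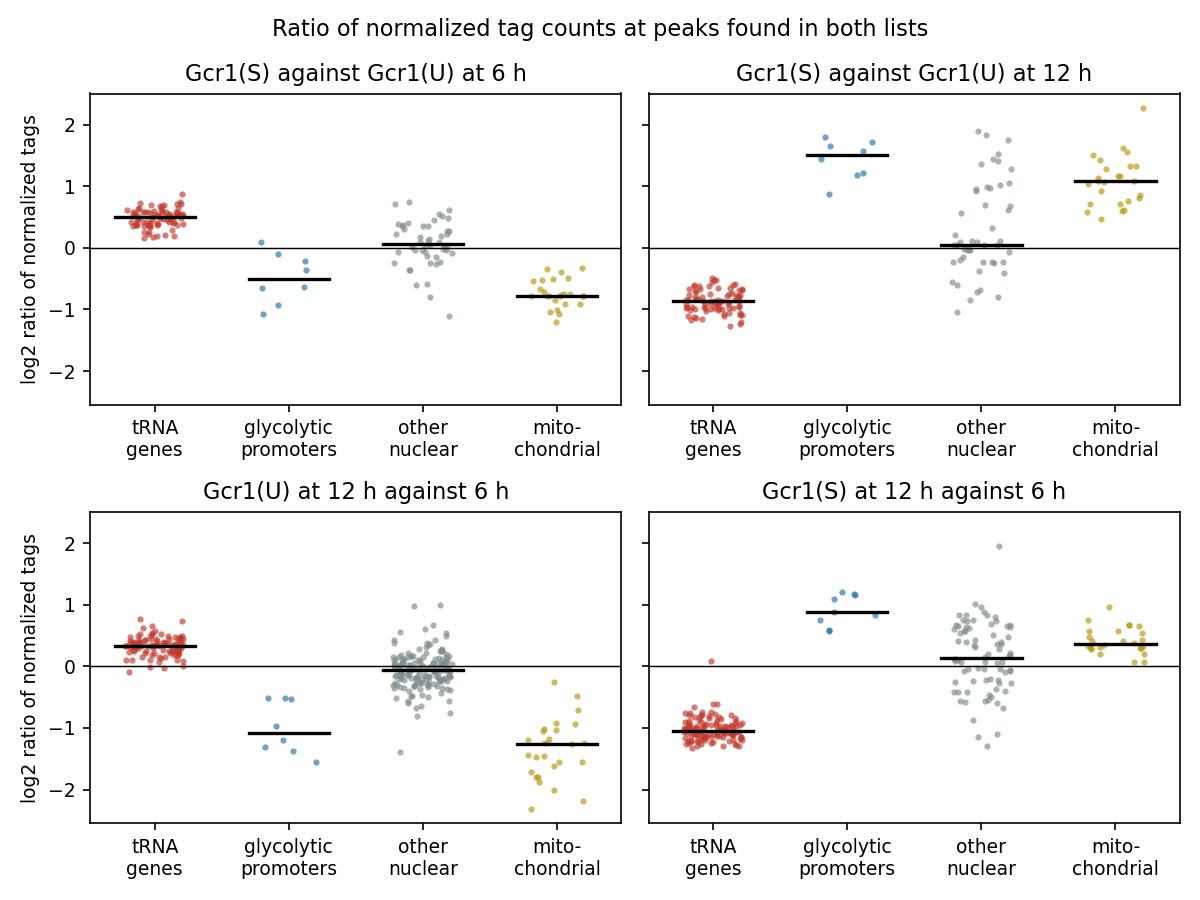
Log2 ratio of normalized tag counts (vertical axis) at peaks found in both lists of each comparison, by class of peak, with 1 point per peak and medians as black lines. tRNA genes have medians of 0.50 and -0.87 between the forms at 6 h and 12 h, and of 0.33 and -1.04 between the times in Gcr1(U) and Gcr1(S).

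Gene length and listing made little difference to these ratios. At 12 h the median log2 ratio of Gcr1(S) to Gcr1(U) was -0.89 at 73 genes under 87 bp and -0.83 at 8 longer ones. In Gcr1(U) the ratio of times had a median of 0.33 both at the 81 genes of both forms and at the 17 of Gcr1(U) alone.

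The order of the 81 shared genes by tags was most alike between lists that differ in both form and time. Across genes, Spearman's rho was 0.867 between Gcr1(U) at 12 h and Gcr1(S) at 6 h, and 0.779 between Gcr1(U) at 6 h and Gcr1(S) at 12 h. Between the forms it was 0.685 at 6 h and 0.619 at 12 h, and between the times it was 0.677 in Gcr1(U) and 0.694 in Gcr1(S). With fold over local background the pair of Gcr1(U) at 12 h and Gcr1(S) at 6 h was again the highest, at 0.860, but that of Gcr1(U) at 6 h and Gcr1(S) at 12 h was 0.663. At 56 other nuclear peaks found in all lists, the first of these pairs was also the highest by tags, at 0.936. The forms at 12 h were the lowest pair there, at 0.779. By fold the highest pair at those peaks was Gcr1(S) at 6 h and 12 h, at 0.866. Genes are not independent replicates, all lists share the same gene sequences, and Gcr1(U) at 12 h and Gcr1(S) at 6 h have windows of nearly equal width (168 and 170 bp).

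**Figure D5:**
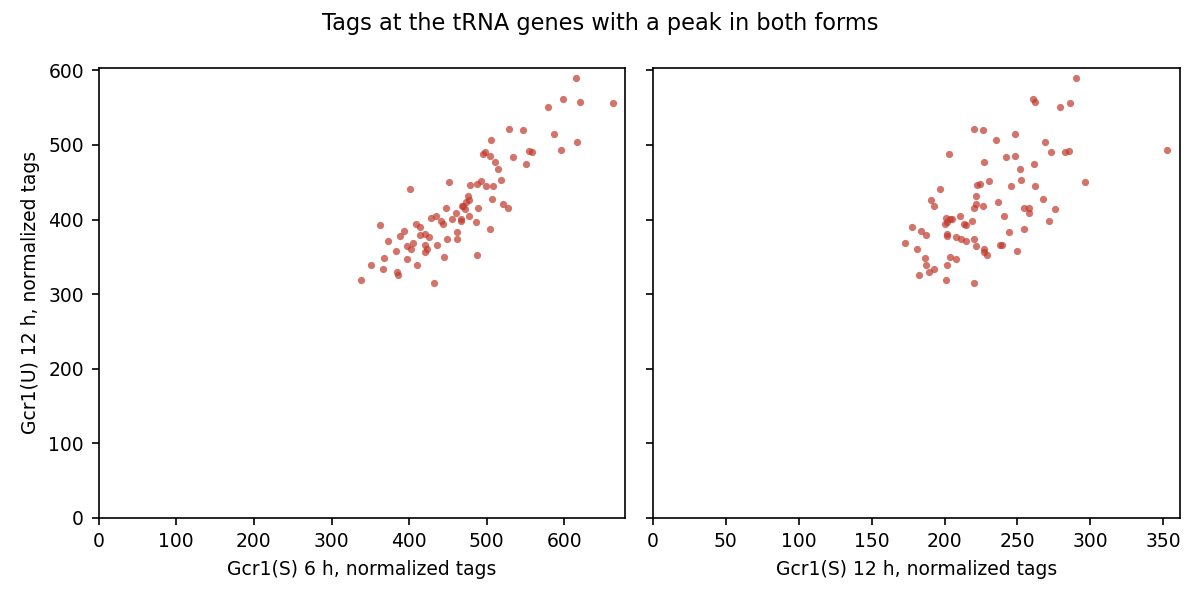
Normalized tag counts at the 81 tRNA genes listed for both forms, Gcr1(U) at 12 h (vertical axis) against Gcr1(S) at 6 h (left) and at 12 h (right), with 1 point per gene. Spearman's rho across genes is 0.867 on the left and 0.619 on the right.

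The tRNA genes lie close to protein-coding genes, so many of their peaks also fall in promoter range, from 1000 bp upstream to 200 bp downstream of a start codon. This held for 69 of 98 tRNA peaks of Gcr1(U) (70.4%), which fell in the range of 93 genes, and for 78 of 118 of Gcr1(S) (66.1%). Among other nuclear peaks of the 6 h lists the share was 55.7% for Gcr1(U) and 70.8% for Gcr1(S). Such a peak is counted for a coding gene without a separate signal there.

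Genes of the tRNA pathway show this. Of 21 genes of cytosolic aminoacyl-tRNA synthetases, which charge tRNAs with amino acids, 2 had a peak in range in each list, SES1 for serine and FRS2 for phenylalanine. The SES1 peak is the one that overlaps the tRNA gene YNCD0007C (IV 488797 to 488870), and had 338.3, 519.5, 547 and 226 tags in the lists. The FRS2 peak overlaps no tRNA gene, and had 323.7, 282.9, 326.3 and 247.5 tags. Its value was the lower one at 12 h in both forms.

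Of 23 genes of the RNA polymerase III machinery, among them the TFIIIC gene TFC3, the TFIIIB gene BRF1, the large subunit gene RPO31 and the repressor gene MAF1, 0 had a peak in range in any list. By the same range 8 of 17 glycolytic genes had a peak in Gcr1(U) and 9 in Gcr1(S). Other genes that RNA polymerase III transcribes were listed in part, 4 of 11 in Gcr1(U) and 3 of 11 in Gcr1(S). SNR52, a small nucleolar RNA gene, had 356.3, 500.1, 595.4 and 244 tags, and RPR1, the RNase P RNA gene, had 482.2, 585.1, 594.5 and 323.9. Like most tRNA genes, both had more tags at 12 h in Gcr1(U) and fewer in Gcr1(S). SNR6, the U6 RNA gene, was listed for Gcr1(S) alone and had 588 tags at 6 h and 265.5 at 12 h. In Gcr1(S) the windows at SNR52, RPR1 and SNR6 were 114 bp wide at 12 h after 170 bp at 6 h. SCR1, the RNA gene of the signal recognition particle, and the 5S rRNA gene RDN5-6 were listed for Gcr1(U) alone. Their values were slightly lower at 12 h, 876.1 after 943.1 and 178.1 after 186.5, in windows of 168 bp after 182 bp. No interval is given for these ratios, and a difference from the tRNA genes was not tested.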

How the data were processed

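The data are 4 peak lists, 1 per form and time, from 8 ChIP-seq samples. The submitters' processing notes name sacCer3, HOMER, bedtools, BWA 0.7.15, Picard 2.92, FastQC 0.10.1 and bcl2fastq 1.8.2, with no roles. Per the file headers the lists are output of HOMER's peak caller. The signal the authors deposited is a normalized tag count per peak window. The score is HOMER's, as deposited, and was used to rank peaks and to check the value grid. The fold over local background, a ratio, and its p-value are the authors' own, per the file headers, and the p-value was not used. The focus ratio, a fraction, and the other deposited columns were not used.

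Genes were placed by the RefSeq annotation of assembly R64, the one behind sacCer3. Peaks within 500 bp of a tRNA gene were taken with Python 3.11.15, pandas 2.3.3, numpy 2.4.6 and scipy 1.17.1. All values in each list lay within 0.05 units of an even grid, where chance would place between 11.6% and 30.0%. The step was taken as 0.5 tags, since all scores are multiples of 0.5, and ratios were given exact binomial (Clopper-Pearson) intervals on the tags so derived. These intervals treat PCR-amplified reads as separate molecules, which no molecular identifiers ensure. The scripts were tested on simulated data. A ratio past 1.5 counted as called. tRNA families were assigned by hand from gene symbols, and sequences and motifs were not analysed here.

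The tRNA genes named are the 5 highest in each list, the 5 largest and 5 smallest ratios of each comparison, the 5 highest of each form alone at 6 h, those nearest the median, those nearest outside 500 bp and families with all or no members listed. The text gives a selection of them, and other members of named families and close pairs were added after their values were seen. The members and lists were chosen with earlier results of these data known.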

Additional observations from a re-analysis of the deposited data

Results flagged for a closer look

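At the 81 tRNA genes listed for both forms, the log2 ratio of 12 h to 6 h was lower in Gcr1(S) than in Gcr1(U) by a median of -1.39 (Gcr1(S) minus Gcr1(U)). It stands out because 77 of the 81 genes had more tags at 12 h in Gcr1(U) and fewer in Gcr1(S). No share over all peaks is given for this joint count. Taken singly, 160 of all 299 peaks of Gcr1(U) had more tags at 12 h, and 149 of all 233 peaks of Gcr1(S) had fewer. The difference was not tested, since each group is 1 pooled list. It is in tags per window, and windows narrowed from 6 h to 12 h, more so in Gcr1(S) than in Gcr1(U). Per bp of window the median log2 ratio of 12 h to 6 h was 0.45 over all 98 tRNA genes of Gcr1(U). Over all 118 of Gcr1(S) it was -0.47. The difference per gene was not computed per bp.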

How the results depend on the processing

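Of 60 recomputed values 36 stayed within the interval of the reported median, or within 1.5 times the reported count, 24 moved further, and 0 reversed. Except for centring on all nuclear peaks, the cause was not tested. In the upper 50% of each list by score, Gcr1(S) had a peak at 72 tRNA genes and both forms at 53. Centred on all nuclear peaks, of which the tRNA genes are 81 of 137, 81 of 138, 98 of 272 and 118 of 207, so that this scale brings them near 0 by construction where they are the majority, the median log2 ratios of tRNA genes were 0.10 and -0.18 between the forms at 6 h and 12 h and -0.20 between the times in Gcr1(S), and the counts past 1.5-fold were 0 between the forms at both times, 2 in Gcr1(U) over time and 0 in Gcr1(S). Centred instead on nuclear peaks away from tRNA genes, an alternative chosen after seeing the data, the medians were 0.47, -0.98, 0.40 and -1.26, and only the count in Gcr1(U) over time moved, to 9. Per bp of window the medians were -0.31 between the forms at 12 h and -0.47 in Gcr1(S) over time, and the counts were 42, 5, 16 and 24 in the same order. With fold over local background those medians were -0.20 and -0.32. At 2-fold the counts were 0, 18, 0 and 69, and by intervals excluding 1 they were 79 between the forms at 6 h and 82 in Gcr1(U) over time. For the centred and per bp counts no share over all peaks is given, so they have no background here. The distance limit, assignment to the nearest gene, overlap rules and the 12 h lists moved no result further than these limits. The 12 h lists hold the same tRNA genes as the 6 h lists, so that alternative could not move a count. No paired analysis was possible because the lists pool the replicates, and for the same reason no replicate could be left out. The motif search was not run. Depth limits Gcr1(S) at 12 h most, with 0.582 sequenced tags per normalized tag.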
